A study of Mus musculus with 9 samples.

Results

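The 8 genes described here, Arg1, Retnla, Chil3, Mrc1, Msr1, Nos2, Ptgs2 and Ptges, are genes of alternative activation, scavenging and inflammatory mediator synthesis that have been reported to depend on the transcription factor C/EBPβ in macrophages. They were taken by symbol, and all 8 were found among 22180 named genes, each on 1 probe that carries no other gene's symbol. The question was whether these genes are read in dendritic cells (DCs) of the spleen and whether they change when C/EBPβ is deleted there. RNA of sorted splenic DCs (CD11c-positive, MHC class II-positive) was measured on 9 single-channel arrays, 6 of control DCs (C/EBPβ+/+) and 3 of knockout DCs (C/EBPβ-/-). All samples are labelled as C57BL/6 background and naive. Of the age of the mice the sources used here say nothing. The knockout mice carry CD11c-Cre-eGFP and a loxP-flanked C/EBPβ gene (C/EBPβflox/flox), so that Cre acts where the CD11c promoter is active, which includes some macrophages and other cells beside DCs. The controls are described both as CD11c-Cre mice and as C57BL/6 mice, and which control carries Cre is not stated. The labels do not tie each replicate to an animal of its own, and a p-value here sets the difference against a spread that could be technical in part.

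C/EBPβ is a basic leucine zipper factor that binds DNA as a dimer and acts with STAT6, NF-kB and other factors on macrophage genes. In macrophages given interleukin-4, STAT6 and C/EBPβ act on Arg1, Retnla, Chil3 and Mrc1, the genes of the alternatively activated state. In macrophages given bacterial products, Nos2 and Ptgs2 are induced, and their enzymes make nitric oxide and prostaglandins. Splenic DCs are short-lived antigen-presenting cells, and in the spleen the mannose receptor Mrc1 and the scavenger receptor Msr1 are better known from macrophages.

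Promoter sequence from RefSeq (GRCm38.p6) was held for 5 of the 8 genes, Ptgs2, Mrc1, Ptges, Chil3 and Retnla. The 250 bases before the annotated start were searched on both strands for 3 nested forms of the C/EBP motif, the palindrome TTGCGCAA, the form TTGCNNAA that keeps 1 intact arm, and the loose form TTNNGNAA. Of 32851 promoter windows of the same length, 0.164% held the palindrome, 9.56% the second form and 36.8% the loose form. The 3 promoters shown are those of Ptgs2, which held the palindrome, Retnla, whose knockout values lay above every control, and Mrc1, which had the largest change. They are written from 5′ to 3′ along the gene, all 3 on the plus strand, with matches to any C/EBP form in capitals.
Ptgs2, chr1:150099781-150100030: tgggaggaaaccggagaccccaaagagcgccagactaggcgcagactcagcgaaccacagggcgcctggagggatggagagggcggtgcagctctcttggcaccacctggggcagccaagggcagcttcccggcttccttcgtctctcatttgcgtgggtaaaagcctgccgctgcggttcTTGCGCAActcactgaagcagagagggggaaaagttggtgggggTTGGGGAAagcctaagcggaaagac
Retnla, chr16:48842359-48842608: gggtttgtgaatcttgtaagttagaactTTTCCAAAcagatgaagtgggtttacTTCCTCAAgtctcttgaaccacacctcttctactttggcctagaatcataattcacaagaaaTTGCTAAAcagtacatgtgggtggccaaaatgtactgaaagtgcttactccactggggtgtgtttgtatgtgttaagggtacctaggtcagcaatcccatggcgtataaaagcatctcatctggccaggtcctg
Mrc1, chr2:14229164-14229413: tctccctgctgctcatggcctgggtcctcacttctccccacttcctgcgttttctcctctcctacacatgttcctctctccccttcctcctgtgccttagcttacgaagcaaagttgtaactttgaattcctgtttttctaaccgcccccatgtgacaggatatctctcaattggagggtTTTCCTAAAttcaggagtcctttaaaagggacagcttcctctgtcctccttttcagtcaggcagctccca

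The palindrome of Ptgs2 lay at positions -69 to -62 from the start. In Retnla the second form lay at positions -134 to -127, beside a STAT6 motif (TTC and GAA with 4 bases between) at -145 to -136, a motif that 5.85% of the windows held. Ptges also held a STAT6 motif, at -197 to -188, which overlapped its 1 loose C/EBP match. The NF-kB motif (GGG and CC with 5 bases between) was held by 45.8% of windows and stood in Ptgs2, Mrc1, Ptges and Chil3. In Ptgs2 it overlapped the loose C/EBP match nearest the start. Of the C/EBP forms, Chil3, Mrc1 and Ptges held the loose one only. These are matches of letters, and binding was not measured.

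The level of Cebpb, the targeted gene, fitted the label of every sample. Cebpb had a median of 6.77 on the log2 scale in the controls, from 6.64 to 7.15, and 5.37, 5.60 and 5.42 in knockout replicates 1 to 3 (limma's adjusted p = 0.00074). Of 18 classical DC markers, 16 were measured and all 16 were read above background, among them H2-Ab1 and Itgax. By limma 0 of the 16 passed an adjusted p of 0.05, and 3 were lower in the knockout at an unadjusted p under 0.05. Over all genes 14.3% passed this in either direction. The summed linear intensity of the markers was 49193 to 53402 in the controls and 49908 to 51954 in the knockouts. Markers of other cells were present too. The red pulp macrophage list (13 of 13 markers read) summed to 5809 to 11821 in the controls and 10206 to 13688 in the knockouts. In bulk RNA, fewer cells of a type and less RNA per cell cannot be told apart.

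Of the 8 genes, 3 were read above background in the controls: Ptgs2, Mrc1 and Msr1. Background was taken as the 95th percentile of 1432 genes for olfactory, vomeronasal and taste receptors, which DCs have no known use for, and lay at 5.51 in the controls and 5.53 in the knockouts. The level of a probe also depends on its sequence, so this places each gene against silent genes and orders no pair of members. Nos2 lay just under the line in the controls, higher than 94.9% of the receptor genes, and just over it in the knockouts, higher than 95.3%. It passed in the controls too without control replicate 2 or 3, and not in the knockouts without knockout replicate 1. At the 90th percentile Arg1, Nos2 and Ptges also passed, which made 6 of 8, and at the 99th percentile Msr1 was lost in the controls. Retnla, at 4.18 ± 0.29 (SD, n = 6), was higher than 77.5% of the receptor genes in the controls, and Chil3, at 4.44 ± 0.87 (SD, n = 6), higher than 82.0%, so neither was told apart from silent genes at this line.

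**Figure D1:**
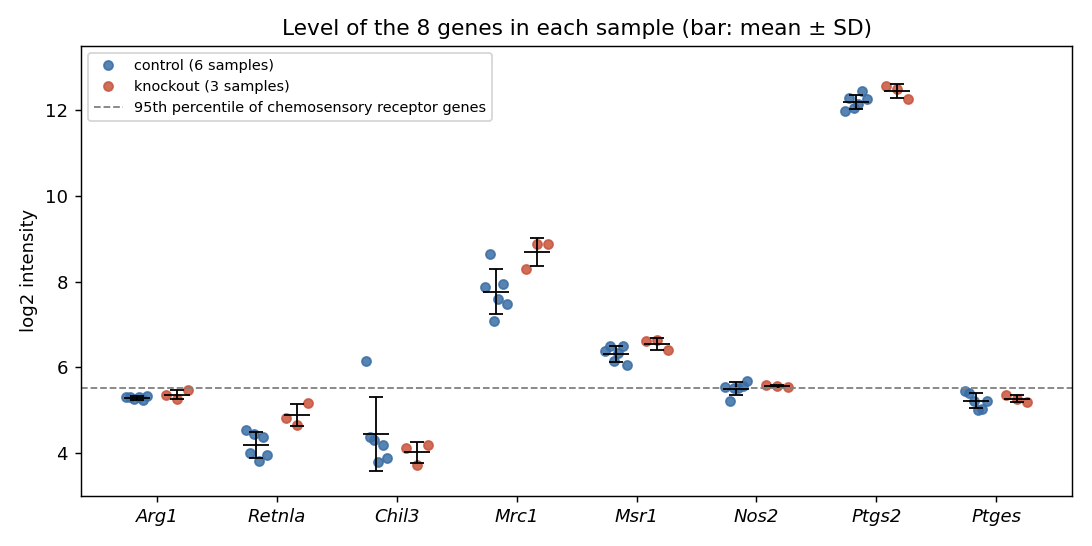
Level of each gene on the log2 intensity scale (y axis) in 6 control samples (blue) and 3 knockout samples (red), with the mean and SD in black and the 95th percentile of receptor genes in the controls (5.51) as a dashed line. Ptgs2, Mrc1 and Msr1 lie above the line, and Chil3 has 1 control sample at 6.15 far above the other 5.

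None of the 8 genes passed the test between knockout and control by limma with Benjamini-Hochberg adjustment over all genes. The count past an adjusted p of 0.05 was 0 of 8, against 0.906% of all genes, so this count does not set the 8 apart. At an unadjusted p of 0.05, 3 of 8 passed (Retnla, Mrc1 and Ptgs2), against 14.3% of all genes. These 3, and 7 of the 8 in all, had a higher mean in the knockout. Retnla was the 1 gene of the 8 whose knockout values all lay above every control, as they did in 2.52% of all genes, and in 0 of the 8 did they all lie below. The median change of the 8 was 0.15 on the log2 scale, against -0.014 over all genes, of which 45.0% had a positive change. The count of 0 held in the 8 other fits and without any 1 of the 9 samples. The fit without dim genes tested only Mrc1, Msr1 and Ptgs2. Limma's test against a minimum change of 1.5-fold called 3 of all 22180 genes and the replicate block 2, so 0 of 8 says little there. Meanwhile the number of all genes past 0.05, 201 with all samples, moved between 33 without knockout replicate 2 and 332 without knockout replicate 1. It was 66, 73, 49, 64 and 60 without control replicates 1, 3, 4, 5 and 6. With 6 and 3 samples the exact permutation test has 84 ways to place the knockouts and can give no p below 0.012.

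**Figure D2:**
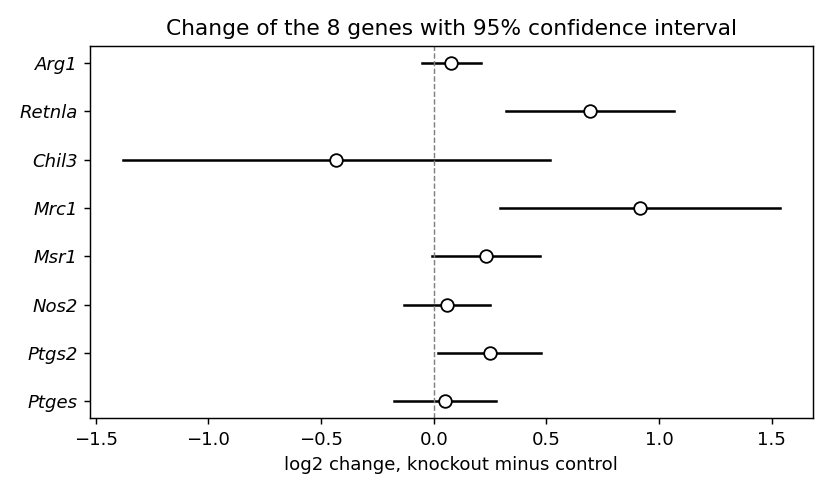
Log2 change of each gene, knockout minus control (x axis), with limma's 95% confidence interval. Open points are genes that did not pass an adjusted p of 0.05, which is all 8, and the intervals of Mrc1, Retnla and Ptgs2 lie above 0.

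Both scavenging receptors were read, and neither passed the test. Mrc1 encodes the mannose receptor, an endocytic lectin for mannose-rich glycoproteins. Its control values ran from 7.07 in replicate 3 over a median of 7.73 to 8.65 in replicate 2, and the knockout values were 8.30, 8.87 and 8.88 in replicates 1 to 3. The groups overlapped, since control replicate 2 lay above knockout replicate 1, while knockout replicates 2 and 3 lay above every control. Means were 7.77 ± 0.53 (SD, n = 6) and 8.68 ± 0.33 (SD, n = 3). The log2 difference was 0.92 (SE 0.28, 95% interval 0.30 to 1.53) or 1.89-fold. It did not pass (limma's adjusted p = 0.16, exact two-sided permutation p = 0.036). Without control replicate 2 the difference was closest to the threshold, with limma's adjusted p = 0.052, and with the replicate block it was 0.53. In limma's test against a minimum change of 1.5-fold the adjusted p of all 8 genes was 1.0.

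Mrc1 moved with the red pulp macrophage markers from sample to sample. The mean of the 13 markers relative to their control mean, on the log2 scale, was highest among controls in replicate 2 (0.58) and lowest in replicate 3 (-0.59), the samples with the highest and lowest Mrc1. The other controls lay between -0.20 and 0.17, and the knockouts had 0.22, 0.79 and 0.65. This order was not particular to the red pulp list. Control replicates 2 and 3 were also the highest and lowest controls for marginal zone macrophage markers (0.18 and -0.26) and non-classical monocyte markers (0.11 and -0.13). The same held for eosinophil, basophil and mast cell markers (0.12 and -0.10). Of the 13 markers, 1 rose by limma, Gpr137b, against 0.415% of all genes. At an unadjusted p under 0.05, 7 had a positive change, against 14.3% of all genes in either direction. Gpr137b, a lysosomal membrane protein, had a log2 difference of 0.76 (SE 0.13, limma's adjusted p = 0.028), with 8.84 to 9.34 in the controls and 9.52, 9.80 and 9.97 in the knockouts. Vcam1, an adhesion molecule that marks these macrophages, had 9.07 to 10.33 in the controls and 10.43, 10.88 and 10.51 in the knockouts. In these 2 of the 13 every knockout lay above every control, as in 2.52% of all genes. Cd5l, another of the 13, had 5.59 to 7.42 in the controls and 5.94, 6.98 and 6.34 in the knockouts. The median change of the 13 was 0.62, with 13 positive. The part of red pulp macrophages or other cells in the difference of Mrc1 was not tested.

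Msr1, the class A scavenger receptor for modified lipoproteins and polyanions, differed less. The controls ran from 6.05 to 6.50 with a median of 6.35, and the knockouts had 6.62, 6.63 and 6.39. Knockout replicates 1 and 2 lay above every control and knockout replicate 3 within their range. Means were 6.31 ± 0.18 (SD, n = 6) and 6.55 ± 0.13 (SD, n = 3). The log2 difference was 0.23 (SE 0.11, 95% interval -0.0068 to 0.47) and did not pass (limma's adjusted p = 0.37, exact two-sided permutation p = 0.095). The sample with the lowest red pulp macrophage markers, control replicate 3, had an Msr1 of 6.14, and control replicate 6 had the lowest, 6.05. The highest controls were replicates 2 (6.50) and 5 (6.48).

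**Figure D3:**
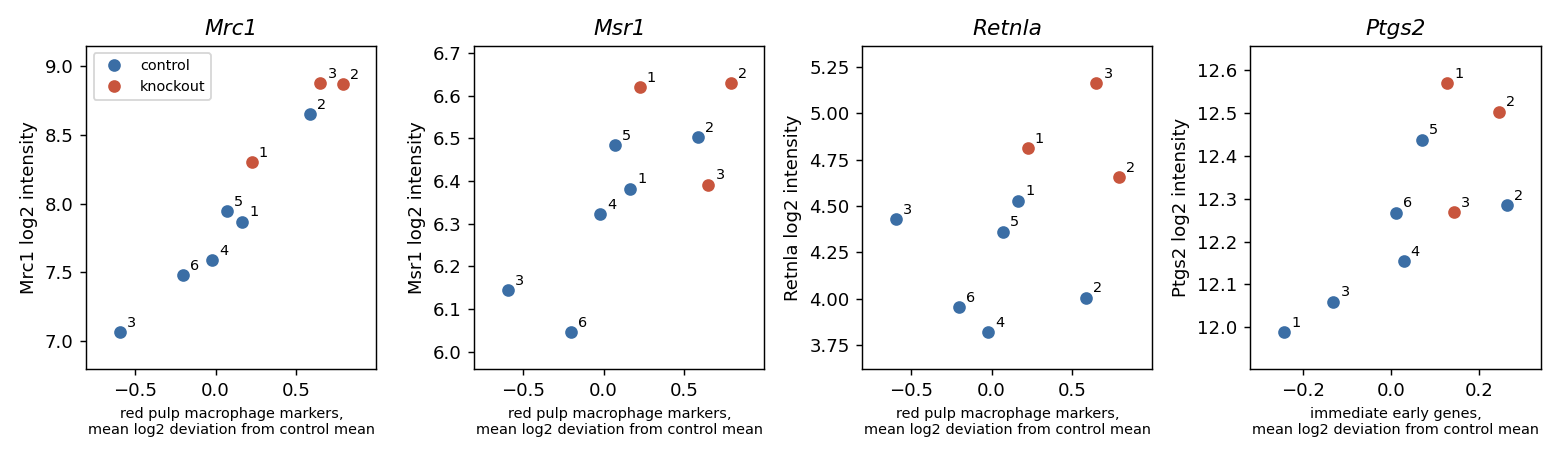
Log2 intensity of Mrc1, Msr1 and Retnla (y axes) against the mean log2 deviation of 13 red pulp macrophage markers (x axis), and of Ptgs2 against that of 16 immediate early genes, in 6 control (blue) and 3 knockout samples (red) labelled by replicate. Mrc1 rises along the marker axis within the controls, from replicate 3 at -0.59 to replicate 2 at 0.58.

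Among the secreted and metabolic genes of alternative activation, Retnla had the smallest p. It encodes a resistin-like protein that macrophages secrete after interleukin-4. The controls ran from 3.82 to 4.53 with a median of 4.18, and the knockouts had 4.81, 4.66 and 5.16. All 3 knockouts lay above every control, the nearest by the gap between 4.66 and 4.53. In the knockouts the mean was 4.88 ± 0.26 (SD, n = 3), which gave a log2 difference of 0.69 (SE 0.17, 95% interval 0.32 to 1.07) or 1.62-fold. It did not pass over all genes (limma's adjusted p = 0.086, exact two-sided permutation p = 0.024), and this adjusted p was 0.069 to 0.40 over the alternatives that test against no change, and 1.0 against the minimum change of 1.5-fold. Both group means lay under the background line, where the robust multi-array average (RMA) is known to compress differences. Retnla did not follow the red pulp macrophage markers among the controls: replicate 3, lowest in these, had the second highest Retnla (4.43), and replicate 2, highest in these, had 4.00.

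None of Retnla's relatives passed the test. Retnlg and Retnlb, 2 further resistin-like genes, had log2 differences of -0.046 and 0.041, and Retn, resistin itself, of -0.022, with limma's adjusted p of 0.87, 0.93 and 0.95. Of these 3, Retn was read above background in the controls.

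Chil3 encodes a chitinase-like lectin secreted by alternatively activated macrophages, and its transcript is also known from monocytes and neutrophils. Its values set 1 sample apart: control replicate 1 had 6.15, and the other 5 controls had 3.79 to 4.37. The knockouts had 4.12, 3.73 and 4.19, within the range of those 5 except knockout replicate 2, which lay just below them. The log2 difference was -0.43 (SE 0.43, 95% interval -1.38 to 0.51), with limma's adjusted p = 0.72 and exact two-sided permutation p = 0.524. Without control replicate 1 it was -0.090, and with the replicate block -0.93, where limma's adjusted p was 0.53. The classical monocyte list was also highest in control replicate 1, at a mean log2 deviation of 0.24 against -0.080 to -0.002 in the other controls and 0.022, 0.042 and 0.11 in the knockouts. In that list Fn1 had 6.32 in control replicate 1 against 5.33 to 5.59 in the other controls. F13a1 had 5.41 against 4.89 to 5.08, all under the background line, and Ly6c2 8.73 against 7.82 to 8.54. Ly6c2 was higher still in knockout replicate 3 (8.95), whose Chil3 was 4.19. Of its 9 measured markers, 6 were read above background, and its summed intensity was 7961 to 8726 in the controls and 8243 to 8504 in the knockouts. The 12 neutrophil markers, of which 3 were read above background in the controls, had a mean log2 deviation of -0.023 in control replicate 1. Among the 12, S100a8 (3.39) and Ngp (4.75), picked after their values were seen, were under the background line in that sample. The remaining neutrophil markers are not given singly here. Whether such cells supplied the Chil3 signal was not tested. Chil4, a near-identical neighbour whose transcripts can share probes with Chil3, had 3.71 in control replicate 1 and 3.41 to 4.00 in the other controls.

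Arg1 encodes the liver-type arginase, which splits arginine into ornithine and urea and competes with nitric oxide synthase. It was nearly flat, with 5.22 to 5.33 in the controls (median 5.30) and 5.35, 5.27 and 5.46 in the knockouts, all under the background line. Knockout replicates 1 and 3 lay above every control and knockout replicate 2 did not. The log2 difference was 0.077 (SE 0.059), with limma's adjusted p = 0.63, and its 95% interval spanned 0.96-fold to 1.15-fold. Leaving out knockout replicate 3 gave 0.026, leaving out knockout replicate 2 gave 0.12, and array weights gave 0.034. At this line an Arg1 transcript was not detectable in either group.

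Of the inducible enzymes of nitric oxide and prostaglandin synthesis, none passed the test. Nos2 encodes inducible nitric oxide synthase. It had 5.22 to 5.67 in the controls (median 5.52) and 5.59, 5.57 and 5.53 in the knockouts, so that every knockout value lay inside the control range. Knockout and control differed by 0.059 on the log2 scale (SE 0.087, 95% interval -0.13 to 0.25), with limma's adjusted p = 0.82. Control replicate 2 was the low sample at 5.22, and without it the difference was 0.0032. It was 0.093 without control replicate 6 and 0.14 with the replicate block.

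Ptgs2 encodes the inducible cyclooxygenase, which makes the precursor of all prostaglandins, and is known as an immediate early gene. It was higher than 99.9% of the receptor genes in both groups. The controls ran from 11.99 in replicate 1 over a median of 12.21 to 12.44 in replicate 5, and the knockouts had 12.57, 12.50 and 12.27. Knockout replicates 1 and 2 lay above every control, and knockout replicate 3 lay within their range. Means were 12.20 ± 0.16 (SD, n = 6) and 12.45 ± 0.16 (SD, n = 3). The log2 difference was 0.25 (SE 0.10, 95% interval 0.018 to 0.48) or 1.19-fold. It did not pass (limma's adjusted p = 0.31, exact two-sided permutation p = 0.083). Of the 5 promoters searched, its own is the one with the C/EBP palindrome.

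A list of 16 immediate early genes, chosen after the values were seen, was read in full in these cells, and Ptgs2 followed it in part. Fos, a subunit of AP-1, had 11.36 to 11.79 in the controls and 11.72 to 11.95 in the knockouts. The mean of the list relative to its control mean was lowest in control replicate 1 (-0.24), which also had the lowest Ptgs2. It was highest in control replicate 2 (0.26), which had a Ptgs2 of 12.28, while control replicate 5, with the highest Ptgs2, had 0.070. The knockouts had 0.13, 0.25 and 0.14, within the range of the controls. Of the 16 genes 0 passed by limma. At an unadjusted p under 0.05, 3 had a positive change, against 14.3% of all genes in either direction. The list's summed intensity was 40956 to 54303 in the controls and 50617 to 55035 in the knockouts, and its part in the Ptgs2 difference was not tested.

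Ptges, the inducible synthase that turns the product of Ptgs2 into prostaglandin E, was not read above background. It had 5.00 to 5.44 in the controls (median 5.22) and 5.35, 5.25 and 5.20 in the knockouts, all under the line, with the knockouts within the control range. The means differed by 0.048 on the log2 scale (SE 0.10, 95% interval -0.18 to 0.27), with limma's adjusted p = 0.88. Single samples moved this value, from 0.0040, 0.0053 and 0.011 without knockout replicate 1, control replicate 4 and control replicate 5 to 0.083, 0.084 and 0.093 without knockout replicate 3, control replicate 2 and control replicate 1. With the replicate block it was -0.085.

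The genes whose pattern over the 9 samples was most like that of Mrc1 were Ctsd, a lysosomal protease (Pearson r = 0.99), Hpgd, which inactivates prostaglandins (r = 0.98), and the complement gene C1qb (r = 0.97). Over the 6 controls alone the coefficients for these 3 genes were 0.99, 0.99 and 0.98. C1qb belongs to the red pulp macrophage markers. For Ptgs2 they were Sowahc (r = 0.96), Adamtsl4 (r = 0.95) and Ttc39b (r = 0.94), and for Msr1 Rheb, Fgfbp3 and Slc35b2 (r = 0.93, 0.92 and 0.91). These are the highest of 10147 genes searched for each, over samples that share the same groups, and are given as a description.

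In the pathways around these genes, the alternative activation list without the members held the most calls. Like the other lists it was chosen with earlier results of these data known, so its share of calls is a description. Of 28 genes measured, 5 rose and 0 fell, against 0.415% of all genes higher and 0.491% lower, with a median change of 0.18. They were the chemokines Ccl17 (0.97, SE 0.094, adjusted p = 0.0024) and Ccl22 (0.45, SE 0.071, adjusted p = 0.025), the lipid-sensing nuclear receptor Pparg (0.68, SE 0.098, adjusted p = 0.016), the interleukin-4 receptor chain Il4ra (0.43, SE 0.083, adjusted p = 0.046) and, outside the naming rule and chosen after its value was seen, the lectin Mgl2 (0.90, SE 0.18, adjusted p = 0.048), all by limma. The 5 became 1 without knockout replicate 2, 2 without control replicate 1 or 6, and 3 without control replicates 3, 4 or 5 or knockout replicates 1 or 3. At an unadjusted p under 0.05, 12 of the 28 were higher and 1 lower, against 14.3% of all genes in either direction. In 9 of the 28 every knockout lay above every control, against 2.52% of all genes. Some markers of other cells rose too. As a mean log2 deviation, knockout replicates 1 to 3 had 0.33, 0.34 and 0.14 for this list. For non-classical monocyte markers they had 0.25, 0.10 and 0.33, and for red pulp macrophage markers 0.22, 0.79 and 0.65. Marginal zone macrophage markers, at 0.22, 0.29 and 0.14, kept the order of the list. Among the controls the list and these marker lists were all highest in replicate 2 and lowest in replicate 3. Among the 10 non-classical monocyte markers 2 rose, the peptidase Ace (1.16, SE 0.15, limma's adjusted p = 0.0096) and the adhesion receptor Adgre4 (0.83, SE 0.12, adjusted p = 0.020), and 0 fell. The median change of the 10 was 0.025, with 6 positive. At an unadjusted p under 0.05, 3 were higher and 1 lower, against 14.3% of all genes in either direction. The summed intensity of the 10 was 14488 to 18018 in the controls and 18576 to 19201 in the knockouts. Of the 5 genes taken as marginal zone macrophage markers 1 rose, the lectin Cd209a (0.54, SE 0.10, limma's adjusted p = 0.046), and 0 fell. Cd209a need not mark these macrophages alone, and Marco, in the same list, had -0.092. The median change of the 5 was 0.13, with 4 positive. Their sums were 2401 to 3126 in the controls and 3487 to 4248 in the knockouts. All 10 and all 5 were read in the controls, as were the 13 red pulp macrophage markers, of which Gpr137b rose. The part of such cells in the rise of the list was not tested.

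Of 24 further scavenger receptors 2 rose and 0 fell, against 0.415% of all genes higher and 0.491% lower, with a median of 0.072. They were Clec7a, the beta-glucan receptor (0.52, SE 0.089, adjusted p = 0.031), and Cxcl16, which binds oxidised lipoprotein (0.40, SE 0.078, adjusted p = 0.046). Relative to its control mean the list was highest among controls in replicate 2 (0.11) and lowest in replicate 3 (-0.088), the samples with the highest and lowest red pulp macrophage markers. In the knockouts it had 0.093, 0.22 and 0.16, beside 0.22, 0.79 and 0.65 for these markers. The lists share Cd5l, and Marco stands in the marginal zone macrophage list too. The part of these cells and of the non-classical monocytes was not tested. The 2 became 0 without any of control replicates 1, 3, 4, 5 and 6 or knockout replicate 2, and 1 without knockout replicate 1 or 3. At an unadjusted p under 0.05, 9 of the 24 were higher and 0 lower, against 14.3% of all genes in either direction. The other members of the mannose receptor family, Mrc2, Ly75 and Pla2r1, gave 0 of 3 by limma, also 0 at an unadjusted p under 0.05, and Ly75 (DEC-205), the DC member, had a log2 difference of 0.096 (limma's adjusted p = 0.67).

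**Figure D4:**
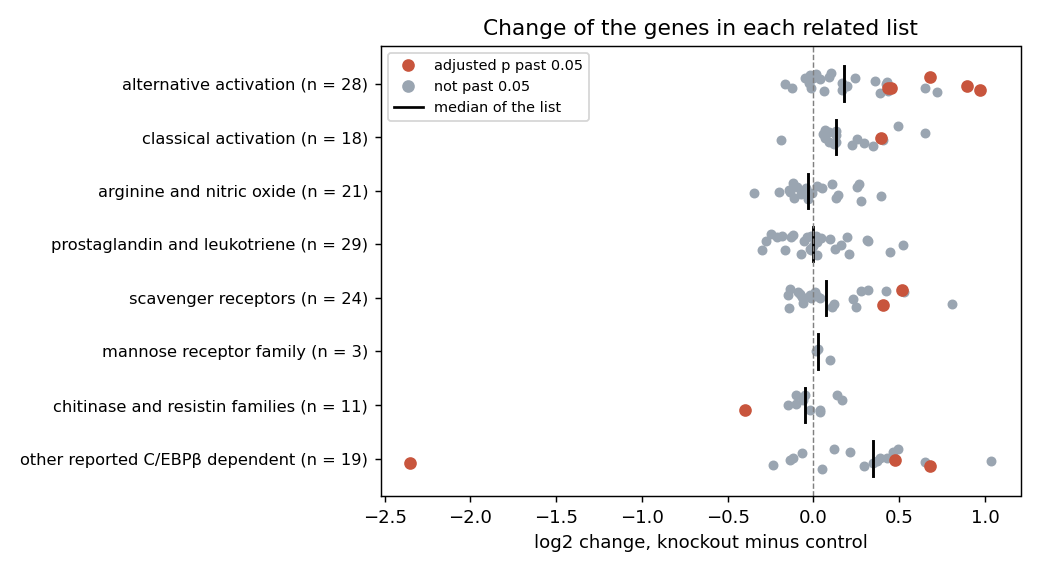
Log2 change, knockout minus control (x axis), of the measured genes of 8 related lists, with genes past limma's adjusted p of 0.05 in red, the others in grey and the median of each list as a black bar. The list of alternative activation holds 5 red points, and the lone gene far to the left is Mmp9.

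The lists around the enzymes had no member past the threshold. In the arginine and nitric oxide list 0 of 21 genes passed by limma, with a median of -0.031. At an unadjusted p under 0.05 there were 3, of which 2 were higher and 1 lower, against 14.3% of all genes. Nearest to the adjusted threshold were Odc1, the first enzyme of polyamine synthesis (0.39, SE 0.081, adjusted p = 0.053), and Srm, spermidine synthase, in the other direction (-0.34, SE 0.072, adjusted p = 0.055). Arg2, the mitochondrial arginase, had 5.96 ± 0.12 (SD, n = 6) in the controls and 6.22 ± 0.15 (SD, n = 3) in the knockouts (adjusted p = 0.19). In the prostaglandin and leukotriene list 0 of 29 passed by limma, with a median of -0.0025. At an unadjusted p under 0.05 there were 9, of which 6 were higher and 3 lower, against 14.3% of all genes. Here the smallest adjusted p belonged to Ptger4, a receptor for prostaglandin E (0.45, SE 0.095, adjusted p = 0.057), and Lta4h, which makes leukotriene B (-0.30, SE 0.081, adjusted p = 0.12). The arginine list had 1 gene past 0.05 without control replicate 5 or knockout replicate 3. The prostaglandin list had 2 without knockout replicate 1 and 1 without knockout replicate 3.

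Of 11 chitinase and resistin relatives, 1 fell and 0 rose, against 0.491% of all genes lower and 0.415% higher. It was Chil5, a chitinase-like gene, which had means of 7.30 ± 0.12 (SD, n = 6) and 6.90 ± 0.062 (SD, n = 3), with limma's adjusted p = 0.048. It was not past 0.05 without any 1 of the 9 samples. Of 18 classical activation genes 1 rose, Socs3, an inhibitor of cytokine signalling (0.39, SE 0.075, adjusted p = 0.046), and 0 fell, against the same shares. Next was the chemokine Cxcl10 (0.65, SE 0.14, adjusted p = 0.066). Socs3 was lost without any of control replicates 1, 3, 4, 5 and 6 or knockout replicate 2. At an unadjusted p under 0.05, 5 of the 18 were higher and 0 lower, against 14.3% of all genes in either direction. A list of 19 further genes reported to depend on C/EBPβ in macrophages was chosen with results of these samples known. Of the 19, 2 rose and 1 fell, against the same shares of all genes, with a median of 0.34. Pparg, counted in the list of alternative activation too, rose. So did Fabp4, a carrier of fatty acids (0.47, SE 0.090, adjusted p = 0.046, with both group means under the background line). The gelatinase gene Mmp9 fell (-2.35, SE 0.11, adjusted p = 2.9e-06). The 3 became 1 without knockout replicate 2. At an unadjusted p under 0.05, 11 of the 19 were higher and 2 lower, against 14.3% of all genes. Il10, in the list of alternative activation too, had 4.10 ± 0.18 (SD, n = 6) in the controls and 4.49 ± 0.29 (SD, n = 3) in the knockouts, under the background line (adjusted p = 0.21).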

How the data were processed

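Each array's deposited table holds log2 intensities. RMA, which corrects background, quantile-normalizes and summarises probes, is what the authors used, per the submitters' processing notes. For its settings and the genome build: not given in the sources used here. Quantile normalization removes any shift common to most genes. Of 41801 rows, 34468 had a value in every sample, and 23521 of these had exactly 1 symbol in the platform annotation. Of several probes of a gene, the one with the highest mean was used, which gave 22180 genes.

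Knockout and control were compared over all genes with limma 3.58.1 in R 4.3.3 (lmFit, eBayes, two-sided, Benjamini-Hochberg adjustment, threshold 0.05), beside exact permutation tests of single genes. The fit was tested on simulated data. The members and lists were chosen with earlier results of these data known. All 8 members are named, with up to 4 genes of each pathway list past 0.05 by smallest p or else the 2 with the smallest p, up to 2 markers of a cell type and, for each member read, the 3 genes most like it. Markers named beside Mrc1, Chil3 and Ptgs2, and the relatives of Retnla and Chil3, Arg2 and Il10, fall outside that rule and were picked after looking at their values. As alternatives, arrays were centred or quantile-normalized again, and the fit was run with a trend and robust option, with weights per array (statmod 1.5.0), with a replicate block, without dim genes, on the mean of a gene's probes, with a minimum change of 1.5-fold and with each sample left out. The number of arrays limits the precision.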

Additional observations from a re-analysis of the deposited data

Results flagged for a closer look

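Control replicate 1 stood apart in Chil3, at 6.15 against 3.79 to 4.37 in the other 5 controls, with a gap to the nearest of 0.757 of the group's range against Dixon's critical value of 0.625 for 6 samples. Control replicate 2 stood apart in Nos2, at 5.22 against 5.52 to 5.67, with a gap of 0.662 of the range. The flag falls on about 1 in 20 groups by chance, and 8 genes were looked at.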

How the results depend on the processing

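None of the members tested passed 0.05 in the 17 alternative fits (3 members without dim genes, 8 otherwise), and each kept its direction except Ptges, which was -0.085 with the replicate block. The numbers do not pair the samples: the deviations of same-numbered samples correlated at -0.14, -0.10 and 0.05, and controls 1, 2 and 3 all matched knockout replicate 3 best. At the 90th percentile of receptor genes 6 members were read in the controls. Over all genes 652 passed with array weights, 483 with dim genes left out, 3 with a minimum change of 1.5-fold, 2 with the replicate block and 33 to 332 with 1 sample left out. At an unadjusted p of 0.05 the 3 members became 5 with the replicate block and 0 with the minimum change. A second quantile normalization lost Ptgs2 and gained Msr1.

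Array weights gave 10 alternative activation genes, 7 of the reported C/EBPβ-dependent, 5 scavenger, 3 classical activation, 1 arginine and 1 prostaglandin. Without dim genes there were 5 reported, 4 scavenger, 2 classical, 2 arginine and 1 prostaglandin. Centring left 1 scavenger, 0 classical and 0 chitinase genes, and the second quantile normalization gave 4 scavenger and 1 arginine. Trend and robust fitting gave 2 arginine and 1 prostaglandin. The minimum change and the replicate block each left 1 reported gene and 0 in the alternative, classical, scavenger and chitinase lists. With 1 sample left out the ranges were 1 to 5 (alternative), 0 to 1 (classical), 0 to 1 (arginine), 0 to 2 (prostaglandin), 0 to 3 (scavenger), 0 (chitinase) and 1 to 4 (reported). Differences in genes near background are limited by the dimness of the probes.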
